A study of Homo sapiens with 63 samples.

Results

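Gene expression was compared at 6 h between HEK293T cells that had received photocaged ibufenac and cells that had received ibufenac as a bolus. The 6 libraries concerned, 3 labelled photocaged and 3 labelled bolus, were chosen by treatment label and time alone, and they are 6 of the 63 libraries of the series. All genes entered the comparison, and the 19352 that passed a filter on low counts were tested. Every group used here was HEK293T, an established human embryonic kidney line, carrying the Halo protein tag. Besides photocaged ibufenac and ibufenac bolus at 6 h, these groups were DMSO, the solvent control, at 6 h, both ibufenac forms at 12 h and 18 h, and both ibuprofen forms at 6 h, each with 3 libraries. For the photocaged route, the study's design text describes loading with a Halo-binding acyl glucuronide precursor at 10 µM for 2 h, washing, and then a 3 min exposure to 365 nm light of 5 mW/cm2. The labels give neither the dose nor the chemical form of the bolus, do not say which groups were lit, and do not say whether the 3 libraries of a group came from separate cultures. The p-values below therefore set differences against the spread between libraries of a group, which may be technical. That spread was estimated over all 21 groups of the series, which include groups labelled probe for both drugs. The form of the drug, its dose and the light cannot be told apart in this comparison.

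Ibufenac is an arylacetic acid that lacks the α-methyl group of ibuprofen, and both drugs can be conjugated to acyl glucuronides, esters that can react with nucleophilic groups on proteins. A Halo tag is an engineered enzyme that binds a chloroalkane ligand covalently, so that a linked precursor stays in the cell until light cleaves it. Cells meet such stress with a few well-known transcription programs. In the integrated stress response, phosphorylation of the translation factor eIF2α slows protein synthesis and favours translation of ATF4, which turns on genes for amino acid import, amino acid synthesis and tRNA charging. In the unfolded protein response, sensors in the endoplasmic reticulum (ER) activate ATF6, spliced XBP1 and, through the kinase PERK, ATF4, and the chaperones of this compartment rise. NRF2 is freed from its inhibitor KEAP1 when reactive molecules modify KEAP1 cysteines, and it turns on genes for glutathione, thioredoxin and haem metabolism.

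The 6 libraries held 13.9 to 22.5 M counts each. Mitochondrially encoded transcripts took 0.999% of the counts of bolus replicate 3, against 0.238% to 0.351% in the other 5 libraries. Bolus replicate 2 lay farther from its group mean over all tested genes than any other library of the series, with a root mean square deviation of 0.597 on the log2 scale, followed within these 6 by bolus replicate 3 at 0.548. The range in the photocaged libraries was 0.409 to 0.462. Replicates differed by more than sampling noise. Marker levels here are CPM (counts scaled to a common library total) on raw library totals, whereas CPM elsewhere in the text are on totals adjusted for composition by TMM. HEK293T markers summed to 538 to 631 CPM in the photocaged libraries and to 442 to 494 CPM with the bolus, with VIM alone at 313 to 499 CPM, while PAX2 reached only 8 counts in any of the 6 libraries. The 8 hepatocyte markers summed to 0.61 to 1.74 CPM in the photocaged and 0.938 to 1.54 CPM in the bolus libraries, with APOA2, TTR, SERPINA1 and FGB at 0. Blood markers summed to 0.887 to 1.68 CPM and 0.595 to 1.66 CPM, with PTPRC, CD3E and HBB at 0. In the same order epithelial markers summed to 55.6 to 68.5 CPM and 50.5 to 57.4 CPM, fibroblast markers to 62.1 to 69.1 CPM and 55.7 to 79.7 CPM, and endothelial markers to 0.444 to 0.539 CPM and 0 to 1.88 CPM. Because CPM are shares of the RNA of a whole culture, fewer cells of a state and less RNA per cell cannot be told apart.

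At 6 h the photocaged libraries stood apart from the bolus libraries in genes of the integrated stress response, of the ER and of redox defence. Asparagine synthetase, the cystine carrier SLC7A11, the ER stress factor XBP1, thioredoxin reductase TXNRD1 and haem oxygenase HMOX1 were higher after photocaged ibufenac by 0.88 to 1.52 on the log2 scale. In edgeR's quasi-likelihood test at an adjusted p of 0.05, 905 genes were higher in the photocaged libraries (4.68% of those tested) and 613 were lower (3.17%), 1518 in all (7.84%), of which 466 differed by more than 1.5-fold (2.41%). The split depended on the processing: it was 586 higher and 865 lower with GC and length trends between libraries removed, and 682 higher and 702 lower without the low-count filter. At an unadjusted p under 0.05 there were 4182 genes. The 3 photocaged libraries were all above the 3 bolus libraries in 1821 genes (9.41%) and all below them in 1395 genes (7.21%). The median log2 difference over all tested genes was -0.01.

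**Figure D1:**
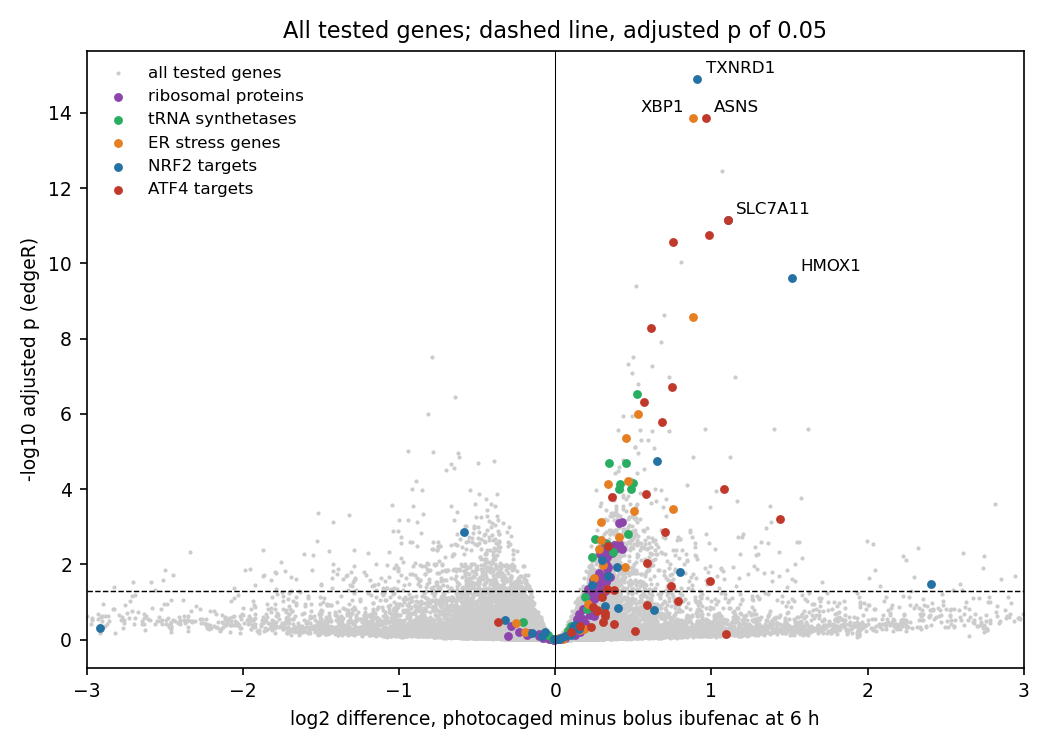
Each point is a tested gene, with its log2 difference (photocaged minus bolus ibufenac at 6 h) on the horizontal axis and -log10 of its edgeR adjusted p on the vertical axis, and coloured points are members of 5 gene lists. TXNRD1, XBP1, ASNS, SLC7A11 and HMOX1 lie at the top right, and 324 tested genes with a log2 difference beyond 3 either way fall outside the axis.

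These counts rest on a spread estimated from all 21 groups, and on which libraries are kept. The bolus libraries deviated from their group mean by 0.485, 0.597 and 0.548. A spread shared over all groups may be too small for this group, and the p-values and standard errors with it. This was not tested. Fitted on the 6 libraries alone, edgeR called 7 genes, all higher: CTH, SLC1A4, SLC7A11, ASNS, TXNRD1, XBP1 and HMOX1; at an unadjusted p under 0.05 that fit had 881 higher and 837 lower genes. Without bolus replicate 3 the total was 682, without photocaged replicate 1 it was 534, and without photocaged replicate 2 it was 966. Bolus replicate 3 was the lowest of the bolus libraries in 50.5% of the 905 higher genes and the highest in 72.4% of the 613 lower genes. In each of the 6 fits that left out 1 library, 308 of the 1518 calls (20.3%) were made again, 226 of them higher and 82 lower. Genes that keep their call in this way are named as such below.

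The called targets of ATF4 were mainly enzymes and carriers of amino acid metabolism. Of 35 tested members, 19 rose, and the median log2 difference of the list was 0.57. Of these 19, 13 kept their call whichever library was left out, and the count ran from 16 to 17 over the 6 fits. ATF4 itself, which is not a member of the list and is controlled mainly through translation, was at 783, 692 and 719 CPM in photocaged replicates 1 to 3 and at 549, 568 and 470.2 CPM with the bolus (log2 difference 0.47 ± 0.06, adjusted p = 4.6e-08, edgeR, where ± is the standard error). The 2 groups did not overlap.

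Among enzymes of amino acid synthesis, ASNS, which makes asparagine, was at 254, 246 and 227 CPM in the photocaged libraries and at 125, 123 and 126 CPM in the bolus libraries (0.96 ± 0.07, adjusted p = 1.39e-14). CTH, cystathionine gamma-lyase, which makes cysteine from cystathionine, was at 110.1, 96.3 and 84.5 CPM against 48.1, 52.03 and 46.5 CPM (0.99 ± 0.09, adjusted p = 1.79e-11). MTHFD2, a mitochondrial folate enzyme, was at 322, 315 and 299 CPM against 189, 201 and 164 CPM (0.76 ± 0.07, adjusted p = 2.7e-11). In all 3 genes every photocaged library lay above every bolus library, by a wide margin for ASNS. PSAT1 and PHGDH of serine synthesis, SHMT2 and ALDH1L2 of folate metabolism and PCK2, the mitochondrial PEP carboxykinase, also rose, with log2 differences of 0.34 for PHGDH to 0.71 for PCK2. PHGDH lost its call without photocaged replicate 3, and ALDH1L2 without photocaged replicate 1, bolus replicate 1 or bolus replicate 2. PSPH, the phosphatase that ends serine synthesis, did not pass (0.27 ± 0.12, adjusted p = 0.157).

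Among amino acid carriers, SLC7A11, which exchanges cystine for glutamate and is also an NRF2 target, was at 209, 221 and 173 CPM in the photocaged libraries and at 83.7, 106 and 90.7 CPM in the bolus libraries (1.11 ± 0.10, adjusted p = 7.21e-12). The lowest photocaged library was still well above the highest bolus library. The glycine carrier SLC6A9 (1.08) and SLC38A2, which takes up small neutral amino acids (0.36), rose as well. SLC7A5 and its partner SLC3A2, the 2 chains of the large neutral amino acid exchanger, did not pass (SLC7A5 0.30 ± 0.18, adjusted p = 0.335; SLC3A2 0.27 ± 0.12, adjusted p = 0.173), and for both genes the groups overlapped. SLC1A4, a carrier of alanine, serine and cysteine that was in no list and is named because it was among the 7 calls of the 6-library fit, was at 68.5, 65.5 and 65.7 CPM against 32.1, 33.4 and 29.8 CPM (1.07 ± 0.09, adjusted p = 3.53e-13).

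Regulators in the ATF4 list gave a mixed picture. TRIB3, a pseudokinase that feeds back on ATF4, was at 47.6, 54.4 and 54.6 CPM in the photocaged and 33.4, 32.9 and 26.9 CPM in the bolus libraries (0.75 ± 0.09, adjusted p = 1.93e-07). NUPR1, a small stress-induced nuclear protein, was at 5.802, 5.72 and 6.02 CPM against 2.45, 2.48 and 1.501 CPM (1.44 ± 0.28, adjusted p = 0.000604), and NIBAN1, another stress-induced gene outside the list, at 8.51, 9.84 and 7.02 CPM against 2.52, 2.99 and 4.298 CPM (1.37 ± 0.25, adjusted p = 0.000278). These 3 genes separated the groups completely, which the rule that named NIBAN1 required. DDIT3, which encodes the pro-apoptotic factor CHOP, was at 32.6, 30.8 and 37.3 CPM against 30.8, 28.98 and 17.7 CPM (0.38 ± 0.12, adjusted p = 0.0462), so its call came with overlapping groups and the lowest value was in bolus replicate 3, without which the difference was 0.17 (adjusted p = 0.469); the call also ended without photocaged replicate 1 or 3. ATF3 was at 185, 183 and 174 CPM against 152, 188 and 145 CPM (0.16 ± 0.11, adjusted p = 0.42), with bolus replicate 2 above every photocaged library. GDF15, a secreted stress hormone, had 3.84, 5.84 and 4.56 CPM against 3.27, 3.24 and 1.64 CPM, which did not pass the test (adjusted p = 0.0909). ATF5, at 10.6, 8.67 and 11.1 CPM against 14.2, 12.7 and 12.4 CPM, was the only member below 0 (-0.37 ± 0.22, adjusted p = 0.341).

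**Figure D2:**
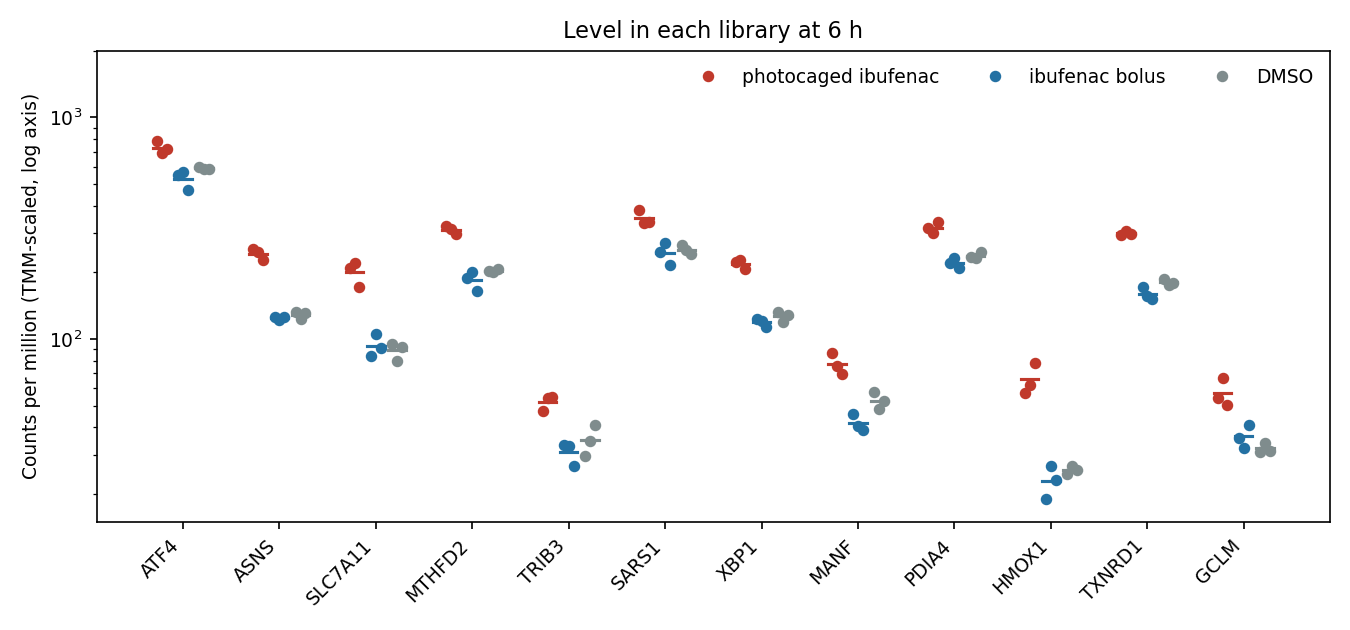
Points give the CPM (log axis) of 12 genes in each of the 3 libraries of photocaged ibufenac, ibufenac bolus and DMSO at 6 h, and short bars give the group means. In all 12 genes every photocaged library lies above every bolus library, as for ASNS at 227 to 254 CPM against 123 to 126 CPM. The 12 are called genes picked for display, so this separation is no added evidence. Of all tested genes 9.41% separate in this direction. DDIT3, ATF3 and HSPA5, which are not drawn, overlap between the groups.

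The promoter of ASNS is shown because ASNS is the called ATF4 target with the smallest p whose start-site window holds an ATF4 element, and because this promoter is known for its amino acid response element. The window runs from 250 bases before to 50 bases after the gene's start, at chr7:97872359-97872658 on the minus strand of GRCh38.p14 (RefSeq), and is written 5′ to 3′ along the gene. Capitals mark the match to TGATGNAA, which begins at position -68 from the start.
ASNS: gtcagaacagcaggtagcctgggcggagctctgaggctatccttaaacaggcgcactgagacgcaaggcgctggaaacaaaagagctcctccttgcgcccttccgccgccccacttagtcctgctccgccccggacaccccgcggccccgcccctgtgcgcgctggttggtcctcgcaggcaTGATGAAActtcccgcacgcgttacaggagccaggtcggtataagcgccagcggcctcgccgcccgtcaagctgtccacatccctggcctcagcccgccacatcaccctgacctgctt
Searched on both strands, these letters occur in 3.67% of 27305 RefSeq promoter windows and in 1.71% of the 12531 windows matched to tested genes. They occur in 6 of 29 ATF4 targets with a window, but in only 1 of the 15 called ones, ASNS itself. Of the 905 higher genes 731 had a window, and 3.56% of these held the letters; of the 613 lower genes 417 had one, and 0.719% held them. The search describes letters and shows no binding.

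The enzymes that charge tRNAs rose beside the ATF4 targets. Of 20 cytosolic aminoacyl-tRNA synthetases, which load amino acids onto tRNAs, 12 rose, with a list median of 0.29. The count ran from 10 to 13 when 1 library was left out, and 10 of the 12 kept their call throughout. SARS1, the serine enzyme, was at 383, 336 and 339 CPM in the photocaged libraries and at 248, 272 and 215 CPM in the bolus libraries (0.52 ± 0.07, adjusted p = 3e-07). EPRS1, which charges both glutamate and proline, was at 478, 459 and 403 CPM against 334, 313 and 330.2 CPM (0.45 ± 0.07, adjusted p = 2.07e-05). NARS1, for asparagine, was at 185, 179.7 and 161 CPM against 138, 124 and 109 CPM (0.50 ± 0.08, adjusted p = 6.67e-05). The groups did not overlap for any of the 3 enzymes. The differences were small, from 0.23 for AARS1 to 0.52 for SARS1 among the called members. The synthetases for phenylalanine (FARSA -0.02 ± 0.19, FARSB 0.11 ± 0.08), histidine (HARS1 -0.05 ± 0.07), glutamine (QARS1 0.08 ± 0.07), lysine (KARS1 0.10 ± 0.07), valine (VARS1 -0.21 ± 0.12) and arginine (RARS1 0.19 ± 0.07) did not pass. IARS1 and LARS1 lost their call without photocaged replicate 1. Exportin-t, XPOT, which carries tRNAs out of the nucleus, rose by 0.57.

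In the ER list, 16 of 24 members rose, with a median of 0.31, and 10 of them kept their call whichever library was left out (11 to 17 calls over the 6 fits). XBP1, the transcription factor that the sensor IRE1 activates by splicing, was at 222, 228 and 208 CPM in the photocaged libraries and at 123, 121 and 114 CPM in the bolus libraries (0.88 ± 0.07, adjusted p = 1.39e-14). These counts are per gene and do not separate spliced from unspliced XBP1. MANF, a secreted ER protein that protects cells under ER stress, was at 86.9, 75.4 and 69.3 CPM against 45.95, 40.6 and 39.03 CPM (0.89 ± 0.10, adjusted p = 2.67e-09). DNAJB9, a co-chaperone of BiP, was at 16.6, 18.6 and 15.4 CPM against 10.8, 10.8 and 8.26 CPM (0.76 ± 0.14, adjusted p = 0.000329).

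Each of these 3 genes separated the groups. PDIA4, a protein disulfide isomerase, was at 317, 301 and 337 CPM against 221, 231 and 209 CPM (0.53 ± 0.07, adjusted p = 1.02e-06), and HYOU1, a large ER chaperone, at 278, 264 and 268 CPM against 189.9, 196 and 206 CPM (0.45 ± 0.07, adjusted p = 4.31e-06). Smaller differences were called in the lectin chaperones CANX (0.34) and CALR (0.29), in HSP90B1 (0.30), and in HERPUD1 (0.45) and SEL1L (0.28) of the pathway that removes misfolded ER proteins. Of these 5 genes CANX kept its call in every fit with 1 library left out; CALR, HSP90B1 and HERPUD1 lost theirs without photocaged replicate 1, HSP90B1 and HERPUD1 also without bolus replicate 2, and SEL1L without photocaged replicate 2. HSPA5, which encodes BiP, the main ER chaperone, was at 209, 229.5 and 219 CPM in the photocaged libraries and at 143, 137 and 252 CPM in the bolus libraries (0.31 ± 0.14, adjusted p = 0.166). Its first and second bolus libraries lay below every photocaged library, and bolus replicate 3, the library with the high mitochondrial share, lay above them all; whether the 2 are related was not tested. Some genes of protein transport into or out of the ER, in no list, were chosen after their values were seen. Among them SEC24D was at 49.3, 54.4 and 41.7 CPM against 17.6, 18.6 and 29.3 CPM (1.15 ± 0.14, adjusted p = 1.04e-07). SEC23B, like SEC24D a subunit of the COPII coat of ER to Golgi transport, differed by 0.49, and SSR2 of the translocon-associated complex by 0.68.

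XBP1 is shown for the ER list by the same rule, since it is itself known to be induced through an ER stress element. Its window lies at chr22:28800520-28800819 on the minus strand of GRCh38.p14 (RefSeq). Capitals mark the match to the ER stress element, searched on both strands as CCAAT and CCACG with 9 free bases between them, at position -52.
XBP1: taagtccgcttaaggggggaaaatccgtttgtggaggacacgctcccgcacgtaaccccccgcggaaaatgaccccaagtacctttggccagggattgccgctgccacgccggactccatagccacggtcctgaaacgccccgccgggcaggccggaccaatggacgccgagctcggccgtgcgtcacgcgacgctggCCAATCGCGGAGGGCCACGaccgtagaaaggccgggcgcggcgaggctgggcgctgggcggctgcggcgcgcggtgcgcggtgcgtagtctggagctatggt
The element occurs in 22 of the 27305 windows (0.0806%) and in 16 of the 12531 windows of tested genes (0.128%). It occurs in 7 of 23 members of the ER list with a window, and 5 of the 15 called members hold it: CALR, CANX, ERO1B, HSP90B1 and XBP1. Among the 731 higher genes with a window 8 hold it (1.09%), the other 3 being EIF2A, SERP1 and TRIM5, and 0 of 417 lower genes do.

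Among NRF2 targets the rise was confined to part of the list. Of 30 genes, 27 were tested, 10 rose and 1 fell, and the median was 0.16. With 1 library left out, 4 to 10 members rose: 4 without photocaged replicate 1, and 6 without bolus replicate 1 or bolus replicate 3. The 4 that kept their call in all of these fits were HMOX1, TXNRD1, SLC7A11 and GCLM. HMOX1, which degrades haem, was at 57.3, 62.4 and 78.4 CPM in the photocaged libraries and at 18.99, 26.8 and 23.1 CPM in the bolus libraries (1.52 ± 0.15, adjusted p = 2.4e-10). TXNRD1, cytosolic thioredoxin reductase, was at 296, 307 and 299 CPM against 173, 156 and 151 CPM (0.91 ± 0.06, adjusted p = 1.25e-15). GCLM, the regulatory subunit of the enzyme that starts glutathione synthesis, was at 54.4, 66.4 and 50.7 CPM against 35.9, 32.4 and 41.01 CPM (0.65 ± 0.10, adjusted p = 1.74e-05).

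All 3 genes were higher in every photocaged library than in any bolus library. The catalytic partner GCLC was at 45.9, 49.8 and 41.8 CPM against 33.97, 36.4 and 38.6 CPM (0.34 ± 0.10, adjusted p = 0.0198), and SRXN1, which repairs oxidised peroxiredoxins, at 50.03, 50.3 and 49.01 CPM against 32.6, 41.1 and 39.8 CPM (0.39 ± 0.10, adjusted p = 0.0118). OSGIN1, a regulator of growth and death under oxidative stress, was at only 1.396, 1.05 and 2.11 CPM against 0.34, 0.355 and 0.137 CPM (2.41 ± 0.74, adjusted p = 0.0334). NQO1, a classic NRF2 target, was low in this line at 4.58, 3.57 and 4.62 CPM against 3.403, 2.79 and 2.05 CPM, and although the groups did not overlap it did not pass (0.63 ± 0.28, adjusted p = 0.164). ABCC1, an exporter of glutathione conjugates, fell, at 42.6, 50.1 and 56.1 CPM against 57.8, 67.02 and 98.3 CPM (-0.59 ± 0.12, adjusted p = 0.00139), and bolus replicate 3 was by far its highest library; without that library ABCC1 was not called. For FTH1, the ferritin heavy chain, the photocaged libraries had 228, 215 and 198 CPM and the bolus libraries 172, 152 and 323 CPM (-0.01 ± 0.15, adjusted p = 0.982), again with bolus replicate 3 apart from the other bolus libraries. PGD, an enzyme of the pentose phosphate pathway, rose by 0.24. The calls of GCLC and SRXN1 ended without bolus replicate 1 or photocaged replicate 1 (GCLC also without photocaged replicate 2), that of PGD without bolus replicate 1 or 3 or photocaged replicate 1 or 3, and that of OSGIN1 without any library but photocaged replicate 2.

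The NRF2 element searched was TGACNNNGC, and TXNRD1 is the called target with the smallest p whose window holds it. The window lies at chr12:104215529-104215828 on the plus strand of GRCh38.p14 (RefSeq). Capitals mark 2 matches, at position -99 on the strand shown and at position -8 on the opposite strand.
TXNRD1: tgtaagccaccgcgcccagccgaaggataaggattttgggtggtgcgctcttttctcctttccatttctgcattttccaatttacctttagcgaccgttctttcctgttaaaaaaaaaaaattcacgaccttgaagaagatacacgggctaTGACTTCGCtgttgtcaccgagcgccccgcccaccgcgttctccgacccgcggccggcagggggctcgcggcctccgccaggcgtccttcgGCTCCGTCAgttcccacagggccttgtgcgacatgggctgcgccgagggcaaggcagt
The letters are common, in 13.6% of all windows and 14.9% of those of tested genes. They were found in 5 of 18 NRF2 targets with a window, in 3 of the 8 called ones (GCLM, PGD and TXNRD1), in 14.2% of higher and in 12.9% of lower genes.

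**Figure D3:**
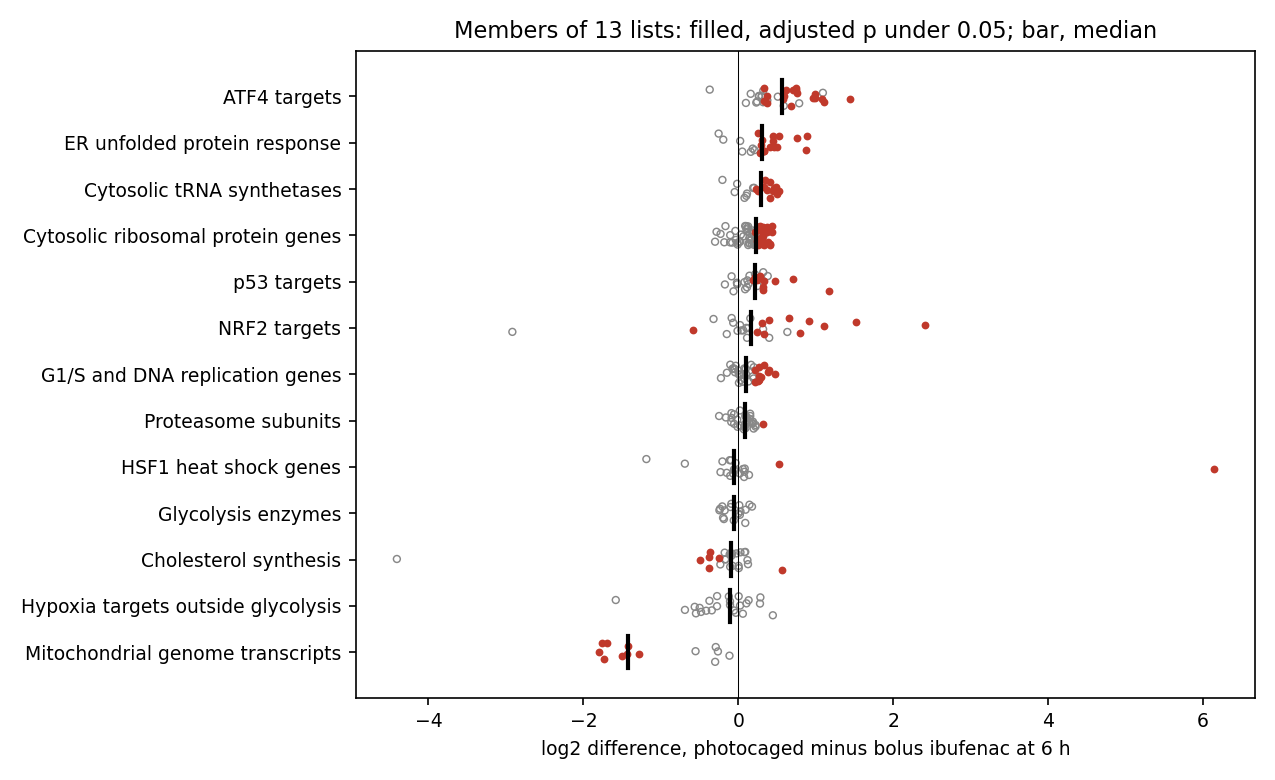
Points are the log2 differences (photocaged minus bolus ibufenac at 6 h) of the tested members of 13 gene lists, filled where the adjusted p was under 0.05, and bars are list medians. The ATF4, ER and tRNA synthetase lists sit to the right of 0, while the mitochondrial list has a median of -1.43; the far right point is CRYAB, at 0 in all bolus libraries.

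Other lists held calls that rested on single libraries. Of 25 p53 targets, 10 rose (median 0.22), but 2 did without bolus replicate 3, 3 without photocaged replicate 1 and 5 without photocaged replicate 2. In HEK293T cells p53 is bound by the SV40 large T antigen. FAS, a death receptor, was at 15.5, 16.9 and 13.04 CPM in the photocaged libraries and at 9.19, 9.83 and 8.67 CPM in the bolus libraries (0.71 ± 0.13, adjusted p = 0.000179). TP53I3, a quinone oxidoreductase, was at 9.07, 9.04 and 11.3 CPM against 4.697, 5.72 and 2.46 CPM (1.17 ± 0.21, adjusted p = 0.000211). Those 2 genes kept their call in every fit with 1 library left out. CDKN1A, the cell-cycle inhibitor p21, was at 97.6, 106 and 95.1 CPM against 80.1, 87.8 and 68.6 CPM (0.33 ± 0.09, adjusted p = 0.0092), and its adjusted p was 0.131 without bolus replicate 3 and 0.0615 without photocaged replicate 2. The p53 targets MDM2 (-0.02 ± 0.08) and BAX (-0.02 ± 0.17) did not pass.

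Ribosomal protein genes showed the same dependence. Of 78 cytosolic ribosomal protein genes, 32 rose, with a median of 0.23, but the count was 3 without bolus replicate 3 and 3 without photocaged replicate 1, against 28 to 40 in the other 4 fits. RPL26 and RPS6 kept their call throughout. RPS6 was at 2637, 2300 and 2139 CPM in the photocaged libraries and at 1904, 1940 and 1483 CPM in the bolus libraries (0.41 ± 0.08, adjusted p = 0.000772), with bolus replicate 3 the lowest. Of 35 G1/S and DNA replication genes, 11 rose (median 0.10), which became 4 without bolus replicate 3 and 2 without photocaged replicate 1. PCNA, the replication clamp, was at 322, 289 and 293 CPM against 257, 236 and 201 CPM (0.38 ± 0.08, adjusted p = 0.00118). With GC and length trends removed, 5 ribosomal protein genes, 1 G1/S gene and 5 p53 targets rose, against 23 ATF4 targets, 13 ER genes and 12 tRNA synthetases.

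Of the ATF4, tRNA synthetase, ER, p53, ribosomal protein and G1/S lists, 0 members fell in edgeR, but 2 ribosomal protein genes did without the low-count filter; 1 G1/S gene and no other member was lower at an unadjusted p under 0.05, and with DESeq2 the number of lower members was 0 in each list.

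All 13 protein-coding transcripts of the mitochondrial genome had negative differences, and 8 fell (median -1.43), but the direction rested on bolus replicate 3. MT-ND4, a subunit of complex I, was at 106, 121 and 77.7 CPM in the photocaged libraries and at 73.7, 62.6 and 853 CPM in the bolus libraries (-1.69 ± 0.48, adjusted p = 0.0214). The groups overlapped, and without bolus replicate 3 the difference was 0.58, in the opposite direction. MT-ND1, also of complex I, was at 38.6, 46.1 and 32.5 CPM against 32.3, 26.3 and 349 CPM, and its difference turned from -1.79 to 0.42 without that library. Both calls also ended without photocaged replicate 1 or 3.

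The median log2 difference of the 613 lower genes was -0.50. They had a median length of 5032 bases and a median GC content of 50.3%, the higher genes 3216 bases and 43.5%, and all tested genes 3043 bases and 48.3%; in the same order 82.2%, 95% and 74.5% were protein-coding. Among those with the largest fall, TNFRSF13C, the BAFF receptor, was at 2.97, 2.399 and 2.69 CPM in the photocaged libraries and at 5.51, 8.36 and 9.35 CPM in the bolus libraries (-1.52 ± 0.29, adjusted p = 0.000424). MAML3, a coactivator of Notch, was at 2.01, 1.97 and 3.33 CPM against 5.11, 4.66 and 8.53 CPM (-1.32 ± 0.25, adjusted p = 0.000484). WNK2, a kinase that regulates ion transport, was at 8.99, 14.2 and 16.4 CPM against 24.1, 29.4 and 27.9 CPM (-1.05 ± 0.19, adjusted p = 0.00026). None of the 3 overlapped between the groups, which the rule that named them required. NPIPB4, at 4.23, 5.78 and 4.503 CPM against 10.7, 9.78 and 21.4 CPM (-1.53 ± 0.34, adjusted p = 0.00231), belongs to a family of near-identical copies, so reads may have been split among them; it was not called without bolus replicate 3 (adjusted p = 0.0719). SPG7, a mitochondrial protease named after its values were seen, kept its call whichever library was left out, at 70.01, 85.3 and 88.2 CPM against 133, 124 and 165 CPM (-0.79 ± 0.09, adjusted p = 3.12e-08).

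Of 25 cholesterol synthesis genes, 5 fell and 1 rose, with a median of -0.10. SQLE, the squalene epoxidase, was at 80.2, 64.4 and 67.5 CPM in the photocaged libraries and at 91.6, 80.1 and 103 CPM in the bolus libraries (-0.37 ± 0.08, adjusted p = 0.00279), and the highest photocaged library lay just above the lowest bolus library. LSS, the enzyme that forms lanosterol, fell by 0.38, and HSD17B7 rose by 0.57. The call of SQLE ended without bolus replicate 3 and that of HSD17B7 without photocaged replicate 1; LSS lost its call in 5 of the 6 fits with 1 library left out. Without bolus replicate 3, 1 of the 25 fell, and without bolus replicate 2, photocaged replicate 1 or photocaged replicate 2, 3 did.

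Among genes with the largest rise, RAB39B, a small GTPase of vesicle traffic, was at 12.6, 11.5 and 9.18 CPM in the photocaged libraries and at 3.47, 3.495 and 3.89 CPM in the bolus libraries (1.62 ± 0.23, adjusted p = 2.5e-06). IL6R, the interleukin-6 receptor chain, was at 8.899, 8.12 and 10.2 CPM against 2.79, 3.85 and 3.62 CPM (1.40 ± 0.20, adjusted p = 2.51e-06). DUSP5, a phosphatase that acts on ERK, was at 7.63, 6.95 and 8.01 CPM against 3.74, 2.13 and 3.07 CPM (1.35 ± 0.28, adjusted p = 0.00105). In each of these genes the lowest photocaged value was more than 1.5 times the highest bolus value. The rule that named them took only genes whose groups did not overlap. Against DMSO the photocaged form passed in edgeR for RAB39B (1.29 ± 0.22, adjusted p = 0.000162). It did not for IL6R (0.545 ± 0.19, adjusted p = 0.104) or DUSP5 (0.78 ± 0.26, adjusted p = 0.0972). The bolus stood at -0.33 ± 0.23, -0.85 ± 0.20 and -0.57 ± 0.28 from DMSO in the same order. DUSP5 was the 1 call among 29 immediate early genes. ABCA1, the cholesterol exporter, was at 5.85, 7.997 and 7.603 CPM against 4.83, 1.67 and 3.002 CPM (1.20 ± 0.26, adjusted p = 0.00184). VIM, the intermediate filament protein vimentin and a HEK293T marker, was at 489, 435 and 442 CPM against 329.6, 328 and 296 CPM (0.52 ± 0.05, adjusted p = 3.94e-10), and TES, an adaptor of focal adhesions, at 66.8, 70.99 and 58.2 CPM against 37.98, 35.9 and 38.1 CPM (0.81 ± 0.08, adjusted p = 9.4e-11).

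Several pathways gave few or no calls. Of 24 tested hypoxia targets and 17 glycolysis enzymes, edgeR called 0 in either direction, with medians of -0.11 and -0.06. At an unadjusted p under 0.05 there were 2 higher and 6 lower hypoxia targets and 2 higher and 2 lower glycolysis enzymes, and with DESeq2 1 member of each list was lower. LDHA, lactate dehydrogenase, was at 564, 503 and 484 CPM in the photocaged libraries and at 579.7, 478 and 695 CPM in the bolus libraries (-0.18 ± 0.14, adjusted p = 0.502). Both drugs are known to inhibit prostaglandin synthesis. Of 16 tested genes of prostaglandin synthesis and reception, edgeR called 0, with 1 higher at an unadjusted p under 0.05, and DESeq2 called 1. PTGS2, the inducible cyclooxygenase, was at 2.23, 2.34 and 1.99 CPM against 1.36, 3.09 and 1.37 CPM (0.15 ± 0.35, adjusted p = 0.851), a difference whose sign turned without bolus replicate 1 or 3 (-0.042 in both cases).

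The heat shock list had 2 called members of 20, the collagen chaperone SERPINH1 (0.53 ± 0.13, adjusted p = 0.00523) and CRYAB, which was at 0 in all bolus libraries and at no more than 0.96 CPM in a photocaged one, so that no fold is given; the call of SERPINH1 ended without bolus replicate 3 and that of CRYAB without photocaged replicate 1 or any bolus library. HSPA1B, the stress-induced HSP70, was at 250.2, 255 and 458 CPM against 605, 606 and 342 CPM (-0.69 ± 0.26, adjusted p = 0.0866); its near-identical neighbour HSPA1A makes these counts uncertain. Of 31 proteasome subunits PSMD4 alone rose (0.32 ± 0.06, adjusted p = 0.000606). Of 24 genes that form, hydrolyse or export acyl glucuronides, 12 were tested and 3 rose. The efflux pump ABCG2 was at 4.32, 4.12 and 4.503 CPM against 2.31, 1.47 and 2.46 CPM (1.06 ± 0.28, adjusted p = 0.0127). ABCB1, another pump (0.63 ± 0.18, adjusted p = 0.0206), overlapped between the groups, and AMACR, the racemase that inverts the chiral centre of ibuprofen, rose as well (1.03 ± 0.29, adjusted p = 0.0203). All 3 calls ended without bolus replicate 2 or photocaged replicate 1, and that of AMACR also without bolus replicate 3. Of 9 tested targets of the AhR, TIPARP rose (0.32 ± 0.09, adjusted p = 0.0127), but not without bolus replicate 3 or photocaged replicate 1. Of 33 G2/M genes, 2 fell: the mitotic kinase PLK1 (-0.41 ± 0.11, adjusted p = 0.0133) and the centromeric histone CENPA (-0.40 ± 0.12, adjusted p = 0.0358). Neither was called without bolus replicate 3 or photocaged replicate 2, and with GC content and length trends removed 10 of the 33 fell. In the main comparison 4.68% of all tested genes were called higher and 3.17% lower. Beside these shares, the few calls there in the heat shock, proteasome, AhR and G2/M lists say little about those lists.

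DMSO libraries at 6 h show on which side each gene moved; they enter both of the following comparisons, so the values are only set side by side. Against DMSO, edgeR called 344 genes higher (1.78% of those tested) and 243 lower (1.26%) after photocaged ibufenac, 587 in all (3.03%). After the bolus it called 5 (0.0258%), 1 higher (0.00517%) and 4 lower (0.0207%). At an unadjusted p under 0.05 the numbers lay closer together, 2821 genes for the photocaged form and 2019 for the bolus. ASNS was at 132, 123 and 131 CPM with DMSO, so that its log2 difference from DMSO was 0.92 ± 0.07 for the photocaged form and -0.05 ± 0.07 for the bolus. For HMOX1, at 24.6, 26.9 and 25.6 CPM with DMSO, the values were 1.36 ± 0.15 and -0.16 ± 0.15. For XBP1, at 133, 119 and 128 CPM with DMSO, they were 0.79 ± 0.06 and -0.09 ± 0.07. In these genes the bolus libraries lay near DMSO and the photocaged libraries above both. HSPA5, which did not pass between the forms, was at 146, 134 and 155 CPM with DMSO. Its difference from DMSO passed in edgeR for the photocaged form (0.60 ± 0.14, adjusted p = 0.00612). It did not for the bolus (0.29 ± 0.14, adjusted p = 0.456).

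By list, 16 of 35 ATF4 targets, 12 of 24 ER genes, 9 of 20 tRNA synthetases and 7 of 25 p53 targets were higher than with DMSO after photocaged ibufenac. The list medians against DMSO were 0.49 for the ATF4 targets, 0.26 for the ER genes and 0.22 for the tRNA synthetases. The same lists had medians of -0.06, -0.09 and -0.07 for the bolus against DMSO. Of 27 NRF2 targets 4 were higher and 1 was lower after photocaged ibufenac, with medians of 0.16 and -0.06. Ribosomal protein genes had a median of 0.05 against DMSO with the photocaged form and of -0.19 with the bolus, and the mitochondrial transcripts 0.21 and 1.76. Among the bolus libraries, replicate 3 stood apart in mitochondrial transcripts: MT-ND4 was at 73.7, 62.6 and 853 CPM in bolus replicates 1, 2 and 3 and at 72.1, 73.7 and 73.4 CPM with DMSO. RPL34 was at 375, 342 and 328 CPM in the photocaged, 309.9, 253 and 223 CPM in the bolus and 349.8, 300.3 and 334 CPM in the DMSO libraries.

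A few fixed genes stood below DMSO with both forms, and their difference between the forms did not pass. RARB, a retinoic acid receptor, was at 2.62, 2.34 and 2.63 CPM in the photocaged, 4.08, 2.03 and 2.93 CPM in the bolus and 6.55, 5.94 and 5.63 CPM in the DMSO libraries. The difference from DMSO passed for the photocaged form (-1.25 ± 0.25, adjusted p = 0.00154) but not for the bolus (-1.02 ± 0.25, adjusted p = 0.109), nor did the forms differ past the threshold (-0.23 ± 0.27, adjusted p = 0.676). Every ibufenac library lay below every DMSO library. ZNF143, a transcription factor, was at 28.1, 27.3 and 19.9 CPM, 25.9, 23.8 and 24.1 CPM and 35.8, 34.0 and 34.1 CPM in the same order. Its difference from DMSO likewise passed for the photocaged form (-0.46 ± 0.13, adjusted p = 0.0359) and not for the bolus (-0.49 ± 0.13, adjusted p = 0.139). Before adjustment the edgeR p was 0.000905 for the photocaged form and 0.000463 for the bolus. The adjustment is made within each comparison, so passing with the photocaged form alone does not show a difference between the forms. By contrast, SLC39A10, a zinc importer, rose between the forms (0.41 ± 0.10, adjusted p = 0.00862; adjusted p = 0.0987 without photocaged replicate 1) and was 1 of the 4 genes called lower with the bolus than with DMSO (-0.53 ± 0.10, adjusted p = 0.0411). It was at 91.3, 74.8 and 83.2 CPM, 64.5, 57.8 and 65.4 CPM and 96.9, 78.8 and 94.3 CPM, so the photocaged and DMSO libraries overlapped and the bolus libraries lay below both.

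The same contrast was made at 12 h and 18 h, in libraries that the 6 h contrast does not use. There, 144 genes were called at 12 h (0.744% of those tested), 60 higher (0.31%) and 84 lower (0.434%), and 14 at 18 h (0.0723%), 4 higher (0.0207%) and 10 lower (0.0517%). Genes with an unadjusted p under 0.05 numbered 1613 at 12 h and 1187 at 18 h. Of the 905 genes higher at 6 h, 87.1% had a positive difference at 12 h and 50.6% at 18 h, beside 50.7% and 51.6% of all tested genes. Of the 613 lower genes, 8.32% and 50.1% had a positive difference. The median difference of the higher genes was 0.41 at 6 h, 0.14 at 12 h and 0 at 18 h. These genes were selected by their 6 h difference, which raises the 6 h median alone, so the fall from it is overstated. The test of the difference between 6 h and 18 h called 388 genes (2%), 247 with a greater difference at 6 h (1.28%) and 141 with a lesser one (0.729%).

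ASNS went from 0.96 ± 0.07 at 6 h to 0.65 ± 0.07 at 12 h and -0.02 ± 0.07 at 18 h, when the photocaged libraries held 141, 135 and 136 CPM and the bolus libraries 140.1, 125 and 152 CPM (6 h minus 18 h 0.98 ± 0.10, adjusted p = 5.29e-09). HMOX1 went from 1.52 ± 0.15 to 0.94 ± 0.15 and 0.29 ± 0.15 (6 h minus 18 h 1.22 ± 0.21, adjusted p = 0.000322). MANF was at 0.19 ± 0.10 by 12 h and 0.05 ± 0.09 by 18 h (6 h minus 18 h 0.84 ± 0.13, adjusted p = 0.000114). The ATF4 list had medians of 0.57, 0.31 and 0.04 at the 3 times, the ER list 0.31, 0.16 and 0.02, and the tRNA synthetases 0.29, 0.07 and -0.01. In the test of 6 h against 18 h, 9 of 35 tested ATF4 targets and 7 of 24 ER genes had a greater difference at 6 h. Of the tRNA synthetases 9 of 20 did, beside 1.28% of all tested genes. The test shares its 6 h values with the main comparison.

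TXNRD1 was still higher at 18 h, at 170, 162 and 159 CPM in the photocaged and 125, 119.5 and 119.8 CPM in the bolus libraries (0.43 ± 0.06, adjusted p = 0.000114), although by less than at 6 h (6 h minus 18 h 0.48 ± 0.09, adjusted p = 0.000772). NRF2 targets as a list had medians of 0.16, 0.20 and 0.19. GCLM was at 0.65 ± 0.10, 0.50 ± 0.10 and 0.30 ± 0.10, and the difference between 6 h and 18 h did not pass (0.35 ± 0.14, adjusted p = 0.204). TIPARP was higher at 18 h too (0.47 ± 0.09, adjusted p = 0.00608). RARB, not called at 6 h, was lower after photocaged ibufenac at 12 h (-1.47 ± 0.24, adjusted p = 0.000294) and 18 h (-1.29 ± 0.24, adjusted p = 0.00608), and the test between 6 h and 18 h did not pass (adjusted p = 0.108).

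**Figure D4:**
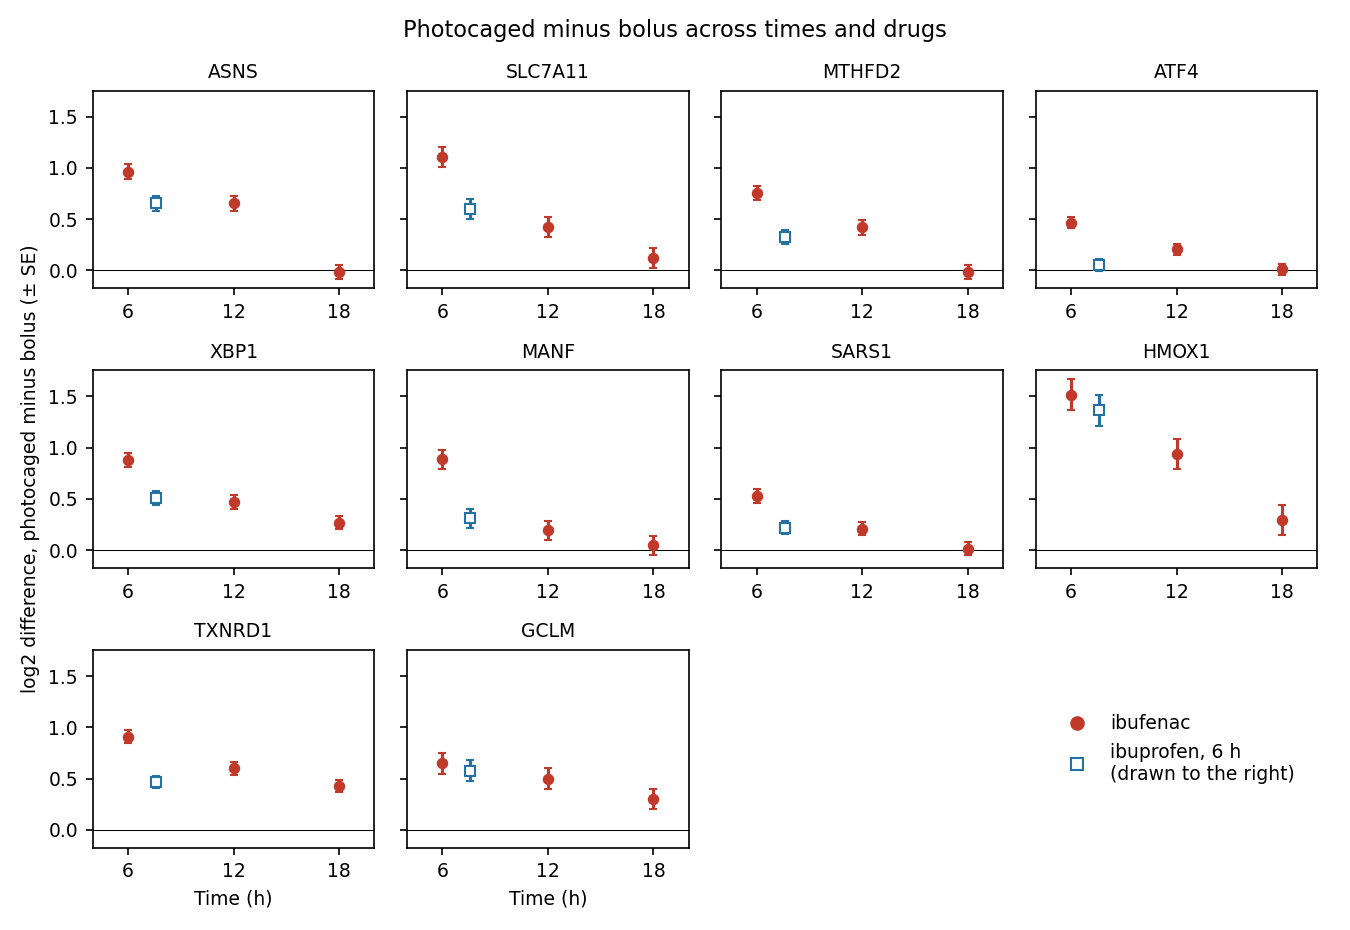
Each panel plots 1 gene's log2 difference, photocaged minus bolus, with its standard error against time in h; filled circles are ibufenac and the open square is ibuprofen at 6 h, drawn beside it. ASNS and MTHFD2 come down to 0 by 18 h, whereas TXNRD1 remains at 0.43, and HMOX1 is at 1.52 for ibufenac and 1.37 for ibuprofen at 6 h.

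Ibuprofen was given in the same 2 forms at 6 h, which is 1 pair of related compounds at a matched time; the doses of both boluses are not given. Its photocaged form exceeded its bolus in 89 genes (0.46% of those tested) and was below it in 131 (0.677%), 220 in all (1.14%). An unadjusted p under 0.05 was reached by 2624 genes. Of the 905 genes higher with ibufenac 79.3%, and of the 613 lower genes 18.1%, had a positive difference with ibuprofen, beside 51% of all tested genes. With ibuprofen 13 of 35 ATF4 targets rose (median 0.36), 2 of 24 ER genes (0.13), 1 of 20 tRNA synthetases (0.07), 5 of 27 NRF2 targets (0.23) and 8 of 25 p53 targets (0.32).

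The difference between the drugs in this contrast passed for 6 genes (0.031%), 5 with a greater value for ibufenac (0.0258%) and 1 with a lesser one (0.00517%), in edgeR with adjustment over all tested genes. TXNRD1 was at 245, 253 and 264 CPM in the photocaged ibuprofen libraries and at 191, 186 and 175 CPM with ibuprofen bolus, and the ibufenac difference exceeded the ibuprofen one by 0.44 (95% interval 0.27 to 0.62, adjusted p = 0.0345). ATF4 was at 619, 648 and 629 CPM with photocaged ibuprofen and 615, 605 and 607 CPM with its bolus, and here the excess was 0.41 (0.26 to 0.57, adjusted p = 0.0345). Part of that excess lies in the bolus libraries, since the ibufenac bolus had 549, 568 and 470.2 CPM. ABRAXAS1, a subunit of a BRCA1 complex, had an excess of 1.19 (0.71 to 1.66), and RHBDL3, a rhomboid-like protein, of -1.15, both with an adjusted p of 0.0345; for ibufenac alone RHBDL3 was not called without bolus replicate 2 or photocaged replicate 1. ZWINT and UVRAG-DT also passed, although neither was called for ibufenac alone, and UVRAG-DT was at 0 in every photocaged ibuprofen library and at no more than 1.29 CPM in the other libraries used here.

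For other genes the drugs were not shown to differ. HMOX1 was at 53.4, 68.5 and 57.7 CPM with photocaged ibuprofen and 20.3, 25.3 and 24.1 CPM with its bolus, and the excess for ibufenac was 0.15 (-0.27 to 0.57, adjusted p = 0.796). For TRIB3 it was 0.06 (-0.21 to 0.33) and for GCLM 0.07 (-0.21 to 0.36). For ASNS it was 0.31 (0.11 to 0.51, adjusted p = 0.199), for XBP1 0.37 (0.19 to 0.55, adjusted p = 0.105), for MANF 0.57 (0.31 to 0.84, adjusted p = 0.0786) and for DNAJB9 0.74 (0.35 to 1.14, adjusted p = 0.138). These intervals leave 0, but adjusted over all tested genes the differences did not pass, and the intervals for HMOX1, TRIB3 and GCLM still hold differences of up to 0.57, 0.33 and 0.36. With GC content and length trends removed, edgeR called 0 genes for the difference between the drugs (lowest adjusted p = 0.143), while 1721 genes had an unadjusted p under 0.05; without that step DESeq2 gave 72.

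**Figure D5:**
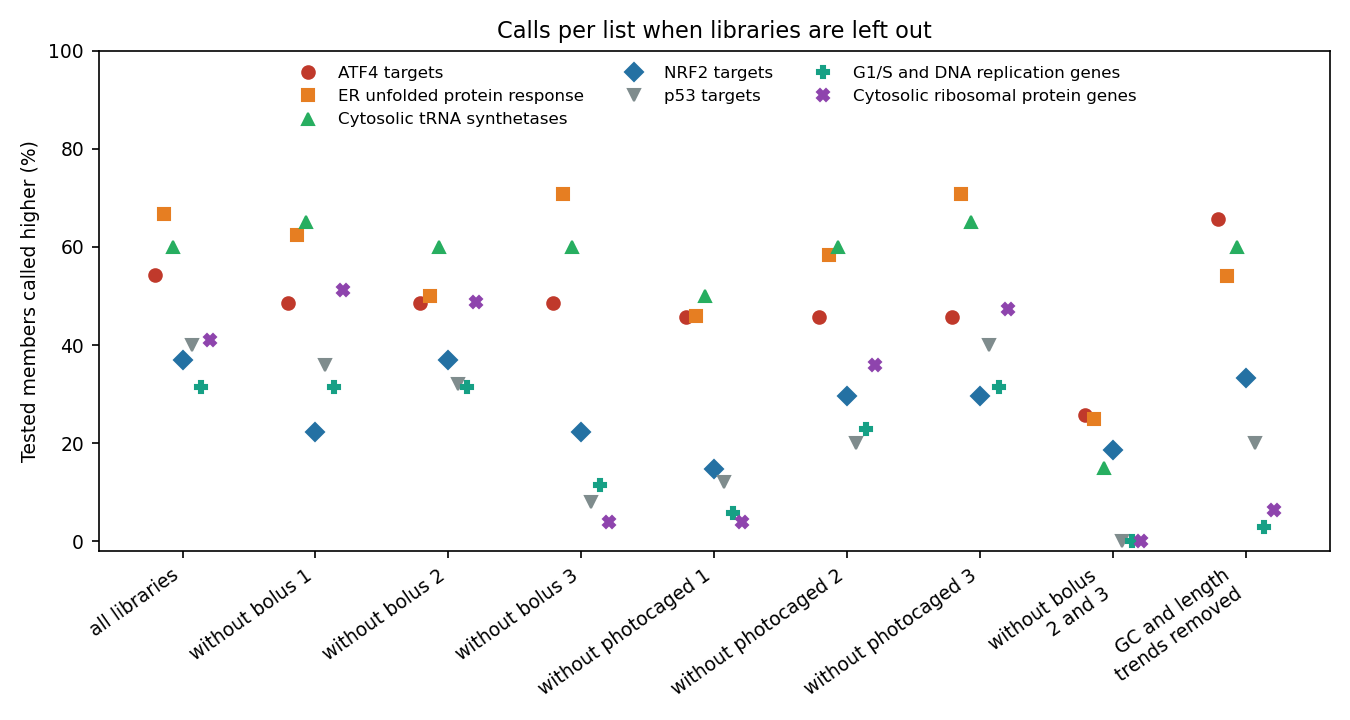
The vertical axis gives the percentage of the tested members of 7 gene lists called higher in photocaged than in bolus ibufenac at 6 h, for all libraries, with single libraries or bolus replicates 2 and 3 left out, and with GC and length trends removed. ATF4 targets, ER genes and tRNA synthetases stay at 45% or more in every fit that leaves out 1 library. They lie lower without bolus replicates 2 and 3, where a single bolus library remains. NRF2 targets drop from 10 to 4 of 27 without photocaged replicate 1. Ribosomal protein, G1/S and p53 genes drop without bolus replicate 3 or photocaged replicate 1.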

How the data were processed

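RNA of HEK293T cells was sequenced from total RNA after ribosomal depletion with a stranded kit, per the labels' protocols. The authors deposited expected counts for 58336 Ensembl genes, in which 22.6% of values from 1 upward have a fractional part; all were rounded to whole numbers. Their FPKM table was not used. For the aligner and the counting tool, the sources used here give no name. Of the genes, 57754 matched current symbols, 462 GENCODE release 29 and 120 none; 0 columns belonged to no sample. Totals ran from 12.1 to 38.4 M counts over 63 libraries (median 19.6 M).

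In R 4.3.3, edgeR 4.0.16 (limma 3.58.1) fitted a quasi-likelihood model to all 21 groups after filterByExpr (minimum count 10) and TMM scaling (0.91 to 1.11), with 42 residual degrees of freedom. Tests were two-sided, Benjamini-Hochberg adjusted over 19352 genes, and called at 0.05. CPM are TMM-scaled, except for markers. The fitting script was tested on simulated data with the same spread in every group, which does not cover an outlying library or a group of wider spread. Alternatives were DESeq2 1.42.0, RLE factors, no filter, a replicate block, the 6 libraries alone and leaving out each library; removing GC and length trends (19319 genes with both values) and leaving out bolus replicates 2 and 3 together were chosen after seeing the data.

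The rule for named genes took the 12 largest rises and 12 largest falls among calls (mean of at least 5 CPM, groups not overlapping), up to 4 called members of each of 31 lists, fixed genes, and up to 5 per interaction test. The comparison, the genes and the lists were chosen with earlier results of these data known. Some called members outside this rule are named with their lists, and some genes that the rule takes are not reported here. No set test was run. Promoter windows came from RefSeq (GRCh38.p14) and matched 12531 of 19335 tested genes by symbol.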

Additional observations from a re-analysis of the deposited data

Results flagged for a closer look

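The effect of the form of ibufenac differed from that of ibuprofen at 6 h in 6 genes. The difference, ibufenac minus ibuprofen, was 0.44 on the log2 scale for TXNRD1, 0.41 for ATF4, 1.19 for ABRAXAS1 and -1.15 for RHBDL3, by edgeR's interaction test. With 3 libraries per group, a difference between the boluses enters these values as much as one between the photocaged forms.

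Between 6 h and 18 h the effect of the form of ibufenac differed in 388 genes. The difference, 6 h minus 18 h, was 0.98 for ASNS, 0.77 for MTHFD2, 0.88 for TES, 0.60 for VIM and 1.05 for RHOU. RHOU was at 50.1, 43.4 and 41.6 CPM in the photocaged and 25.1, 26.9 and 29.6 CPM in the bolus libraries at 6 h, and the photocaged minus bolus difference was 0.73 ± 0.09 at 6 h and -0.32 ± 0.09 at 18 h.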

How the results depend on the processing

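With 3 libraries a group, of which bolus replicates 2 and 3 lay far from their mean, counts of calls are less firm than the leading genes. Leaving out 1 library gave 534 to 1826 called genes, 307 to 1097 higher, 170 to 833 lower, and 207 to 716 past 1.5-fold. Leaving out bolus replicates 2 and 3 together gave 89, of which 73 were higher, 16 lower and 57 past 1.5-fold; the lone bolus library is then assumed to vary like the other groups. The 6 libraries alone gave 7, of which 7 were higher, 0 lower and 7 past 1.5-fold, with fewer degrees of freedom and a spread taken from these 6 only. That fit called 3 ATF4 targets, 3 NRF2 targets, 1 ER gene and 0 tRNA synthetases higher. RLE factors gave 1491 calls (1480 shared), no filter 1384 (682 higher, 702 lower, 1004 shared) and DESeq2 1777 (1463 shared).

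No pairing by replicate number was seen: deviations of same-numbered photocaged and bolus libraries correlated at -0.047, -0.032 and -0.126. With so few libraries such values cannot exclude a shared culture or batch. Adding the replicate block gave 1473 calls (1446 shared with the fit without it) and 3 lower genes in place of 1 in the test between drugs. No other total of called genes moved by over 1.5 times. Of the counts of list members, 2 moved by more than that, or to or from 0.

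DESeq2 gave 72 genes between drugs (67 higher, 5 lower), 611 between 6 h and 18 h (252 lower), 34 at 18 h (15 and 19) and 415 with ibuprofen (161 and 254). With GC and length trends removed, 586 genes were higher and 865 lower at 6 h, the test between drugs called 0 (0 higher, 0 lower), 12 h gave 219 (148 lower), 18 h 23 (18 lower) and ibuprofen 137 higher. The cause was not tested.

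Leaving out 1 library turned the sign of 10 named genes, 4 of them called. MT-ATP8 ranged from -2.21 to 0.16, MT-ATP6 from -2.21 to 0.27, MT-ND1 from -2.28 to 0.42 and MT-ND4 from -2.18 to 0.58, the highest values being without bolus replicate 3. Without bolus replicates 2 and 3 these genes were at 0.096, 0.03, 0.28 and 0.47. The others were not called: RARB -0.46 to 0.047, PTGS2 -0.042 to 0.69, BNIP3 -0.13 to 0.035, CPT1A -0.093 to 0.22, PGK1 -0.057 to 0.067 and ZNF143 -0.06 to 0.17. ZNF143 and PGK1 were at -0.09 and -0.05 with GC and length trends removed, and at -0.044 and -0.038 without bolus replicates 2 and 3.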
